A study of Mus musculus with 11 samples.

Results

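Tiles of 500 bp with an intermediate number of CpGs and a methylation level between the extremes were examined in ER-Hoxa9-Lys-GFP cells. A tile was taken if it lay on mouse chromosomes 1 to 19 (build mm9), held 10 to 24 CpG positions listed in any library, had at least 30 CpG-read observations in every library (an observation is 1 read at 1 CpG) and had a pooled methylation, methylated reads over all reads of the 11 libraries, of 20% to 80%. These conditions gave 1488 members, of 19760 covered tiles of the same CpG number and 47687 covered tiles of any CpG number. Of the other covered tiles with 10 to 24 CpGs, 8015 were below 20% and 10257 above 80%. The members were chosen by their methylated and total reads in all 11 libraries, so their middle level is a property of the choice and was not tested.

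The cells are a C57BL/6 mouse culture in which the transcription factor Hoxa9 is fused to the estrogen receptor's hormone-binding domain and is active only with estradiol (E2), and all groups carry that fusion and the Lys-GFP reporter of lysozyme expression. DNA methylation was measured by reduced representation bisulfite sequencing (RRBS), which reads CpG-rich restriction fragments after bisulfite has converted unmethylated cytosines. Cells kept in E2 gave 1 library. Pairs of libraries came from cells without E2 for 24 h and returned to it for 96 h, without it for 40 h and returned for 80 h, without it for 56 h and returned for 64 h, and without it for 72 h and returned for 48 h, and a last pair from cells without E2 for 120 h. Longer absence always went with shorter return, and the effects of absence and return cannot be told apart. Separate cultures are not stated in the labels, and the spread that p-values are measured against may therefore be technical. Depth ranged from 8234933 to 46899896 observations per library. It was low in both 40 h and both 56 h libraries and high in both 120 h libraries. The continuous E2 library was also shallow, at 12668839, and the 24 h pair was unequal, at 16281112 and 46316547.

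In mammals, CpG-dense stretches (CpG islands) are mostly free of methylation, most scattered CpGs are methylated, and the flanks of islands, called shores, lie between these states. A middle level over a stretch of DNA can hold CpGs that are each methylated on part of the molecules, as at imprinted genes where the parental copies differ, or fully methylated and unmethylated CpGs side by side. DNA methyltransferases such as Dnmt3a add methyl groups to unmethylated sites, and Dnmt1 copies them to the new strand after replication.

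A set of 6 promoter windows that overlap members show both forms and are printed here. In 3 of them most CpGs were at middle levels, and 3 had a step towards the transcription start. They were chosen after their values were seen. The sequences are RefSeq promoters of GRCm38.p6, 250 bases before to 50 after a start, written 5′ to 3′ on the strand of the gene. Capitals mark the CpGs that the libraries list.
Dnmt3a: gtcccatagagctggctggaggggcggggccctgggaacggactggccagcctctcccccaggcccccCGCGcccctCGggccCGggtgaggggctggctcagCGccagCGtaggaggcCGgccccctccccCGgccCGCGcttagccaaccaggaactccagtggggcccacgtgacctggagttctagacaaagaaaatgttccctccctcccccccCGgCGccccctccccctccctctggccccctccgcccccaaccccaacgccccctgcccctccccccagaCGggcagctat
Zfp558: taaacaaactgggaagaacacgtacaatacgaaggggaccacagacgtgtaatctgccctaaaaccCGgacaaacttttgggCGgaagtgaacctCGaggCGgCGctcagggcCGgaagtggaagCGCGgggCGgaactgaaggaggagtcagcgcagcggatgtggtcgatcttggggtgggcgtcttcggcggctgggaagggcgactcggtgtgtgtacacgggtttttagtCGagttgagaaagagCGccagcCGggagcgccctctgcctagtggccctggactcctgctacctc
Wipf1: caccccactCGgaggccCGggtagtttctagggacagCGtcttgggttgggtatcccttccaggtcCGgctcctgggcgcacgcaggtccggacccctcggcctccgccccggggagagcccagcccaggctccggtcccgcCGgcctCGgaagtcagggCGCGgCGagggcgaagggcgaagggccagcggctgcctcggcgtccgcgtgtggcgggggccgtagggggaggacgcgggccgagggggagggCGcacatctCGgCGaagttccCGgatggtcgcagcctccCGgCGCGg
Cdk6: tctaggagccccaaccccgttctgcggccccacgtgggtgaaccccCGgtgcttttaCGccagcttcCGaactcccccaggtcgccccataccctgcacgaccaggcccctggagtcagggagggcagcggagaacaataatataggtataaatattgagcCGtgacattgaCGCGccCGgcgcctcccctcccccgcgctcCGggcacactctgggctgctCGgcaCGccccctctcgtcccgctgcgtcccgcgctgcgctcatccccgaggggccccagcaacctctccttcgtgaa
Parg: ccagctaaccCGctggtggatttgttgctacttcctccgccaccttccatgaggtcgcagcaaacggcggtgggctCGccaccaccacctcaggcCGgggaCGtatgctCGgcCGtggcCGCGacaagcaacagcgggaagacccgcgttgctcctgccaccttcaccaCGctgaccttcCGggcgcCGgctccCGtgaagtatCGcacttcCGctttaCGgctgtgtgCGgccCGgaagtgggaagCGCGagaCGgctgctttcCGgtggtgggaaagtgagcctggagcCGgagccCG
Phc2: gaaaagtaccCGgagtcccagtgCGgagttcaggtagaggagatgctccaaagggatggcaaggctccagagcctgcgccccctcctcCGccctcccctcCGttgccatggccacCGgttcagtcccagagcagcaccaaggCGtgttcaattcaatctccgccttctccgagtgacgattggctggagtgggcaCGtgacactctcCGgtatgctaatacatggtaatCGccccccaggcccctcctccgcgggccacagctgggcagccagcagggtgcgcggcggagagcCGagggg

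The windows were placed on mm9 by the spacing of the listed CpGs, with no conversion of coordinates. They lie at chr12:3891494-3891793 on the plus strand (Dnmt3a), chr9:18277954-18278253 on the minus strand (Zfp558), chr2:73367495-73367794 on the minus strand (Wipf1), chr5:3343643-3343942 on the plus strand (Cdk6), chr14:33014885-33015184 on the plus strand (Parg) and chr4:128331696-128331995 on the plus strand (Phc2).

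At the window of Dnmt3a, a de novo DNA methyltransferase, 11 of the 12 CpGs with at least 10 pooled reads stood at 29.2% to 47.4%, and the CpG at position -28 from the start stood at 6.52%. A further CpG there had 1 read. At Zfp558, a zinc-finger gene, all 12 listed CpGs stood at 31.8% to 40.8%. At Wipf1, whose product binds the actin regulator WASP, 14 of 16 CpGs were between 32.9% and 66.7%, and the others were at 81.3% and 90.9%. The Wipf1 window was the least even of these, with a standard deviation between CpGs of 15.5 points. It was 10.7 points at Dnmt3a and 2.64 points at Zfp558.

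The other 3 windows held a boundary. At Parg, which codes for the enzyme that removes poly(ADP-ribose), the 10 CpGs up to position -70 stood at 44.0% to 63.3% and the 13 CpGs from position -63 onward at 0 to 2.78%. The CpGs on either side of that boundary were at 56.8% and 2.15%. Only the upstream 6 CpGs of that window lie in the member tile. They stood at 44.1% to 63.3%, so the boundary lies outside the member. At Cdk6, a kinase of the G1 phase, 7 CpGs up to position -72 ranged from 22.9% to 53.7%, and the 3 CpGs from position -48 were at 0 to 1.05%. At Phc2, a Polycomb subunit, the CpGs at positions -240 and -227 stood at 94.9% and 97.8%, the next 3 at 8.58% to 15.6%, and the 5 closest to the start or past it at 0 to 1.32%. The Phc2 window thus combined CpGs at opposite levels, whereas each CpG of the Zfp558 window was itself at a middle level.

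**Figure D1:**
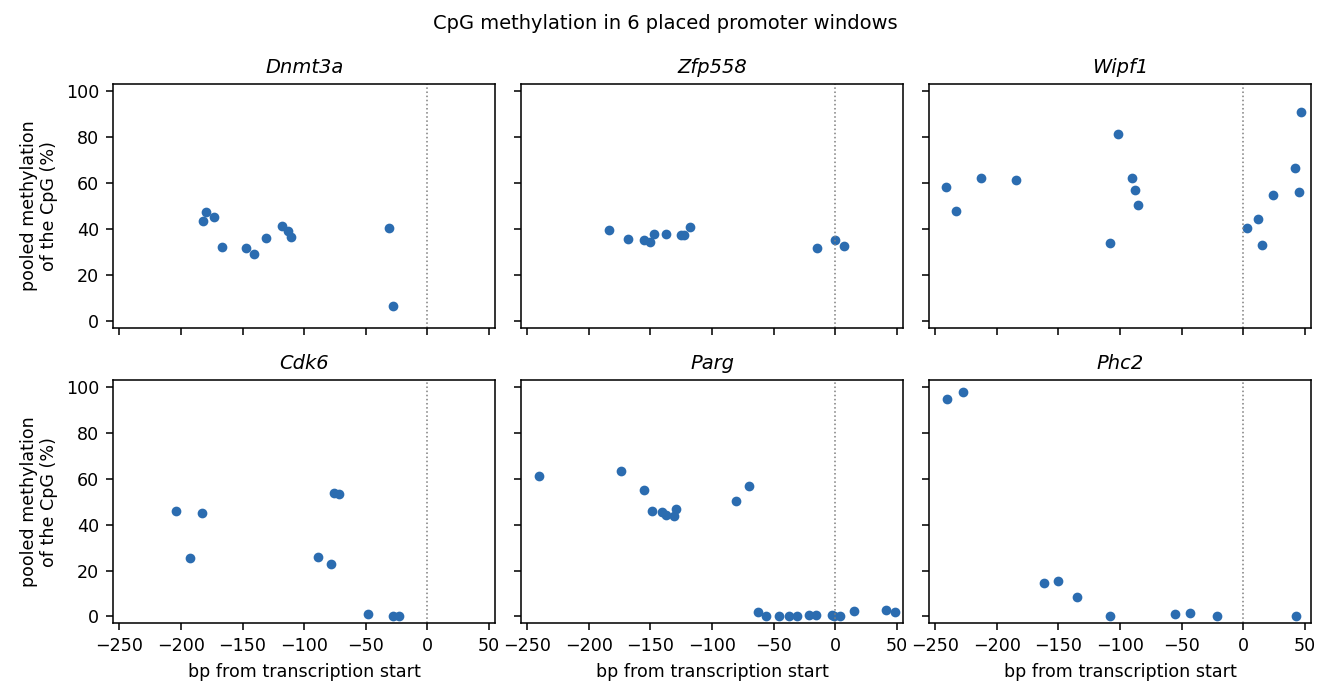
Pooled methylation (%) of each CpG with at least 10 pooled reads (points) against its distance from the transcription start (bp, dotted line at 0) in 6 promoter windows that overlap members. Dnmt3a and Zfp558 stay near 30 to 47% over most of the window, and Parg drops from 56.8% at position -70 to 2.15% at position -63.

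Both forms occurred among the members as a whole, and many members lay between them. Of 21944 CpGs with at least 10 pooled reads in members, 12192 (55.6%, 95% Wilson interval 54.9 to 56.2%) were at 20 to 80%, 3596 (16.4%) below 20% and 6156 (28.1%) above 80%. The interval covers counting error only, and a CpG with few reads can cross a limit by chance. The standard deviation (SD) between the CpGs of a member had a median of 23.6 points, with quartiles of 16.5 and 29.6. In 622 members (41.8%) at least 1 CpG was below 20% and at least 1 above 80%. In 146 members (9.81%) every CpG was at 20 to 80%. Among tiles of the same CpG number the median SD was 0.698 points below 20% and 5.53 points above 80%, where the level limits the spread. In the 457 CpG-dense tiles at 20 to 80% it was 22.5 points, close to that of the members.

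The member with the largest CpG spread, chr3:121995501-121996000, held 5 CpGs below 20% and 5 above 80%, and touched a CpG-dense tile at 0.417%. The next, chr5:114698001-114698500, held 8 CpGs below 20% and 5 above 80%. At the other end, the 10 CpGs of chr2:79268501-79269000 stood between 43.2% and 48.5%. The 11 CpGs of chr3:108186501-108187000, at the promoter of the spindle gene Psrc1, stood between 31.7% and 37.6%. Those of chr16:76143001-76143500 stood between 61.7% and 67.9%.

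Members with a small CpG spread were most frequent at 30 to 45%. Among the 219 members with an SD below 12 points, a limit chosen after the values were seen, 128 (58.4%) had a pooled level of 30 to 45%, a band with 25.7% of all members. A further 36 (16.4%) were at 60 to 70%, a band with 17.5% of all members, so that uniform members were about as frequent there as overall. Only 11 were at 50 to 60%, of 170 members there. In steps of 5 points the uniform members were most frequent at 35 to 40%, 59 of 137 members (43.1%), and least frequent at 55 to 60%, 2 of 87 members (2.30%). With limits of 10 and 15 points the 35 to 40% step again held the most uniform members, 48 and 73, and the 55 to 60% step the fewest, 0 and 7. Neither band was set by 1 locus, since the 128 lay on 17 chromosomes with 14 adjacent pairs (5 of the 128 were over 10 times the median depth of members), and the 36 on 15 chromosomes with no adjacent pair. In the 128 tiles of the lower band, 35 (27.3%) lay within 2 kb of a CpG-dense tile and 23 overlapped a placed promoter, against 1 (2.78%) and 1 in the upper band. In the lower band the median per library was 39.4% with continuous E2, 37.7% and 37.4% after 24 h, 38.6% and 39.6% after 40 h, 39.8% and 40.1% after 56 h, 36.4% and 38.7% after 72 h, and 38.0% and 38.0% at 120 h. In the upper band it was between 63.4% and 67.2% in all 11 libraries. The pooled level that set the bands comes from the same libraries, so these medians are a description only.

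**Figure D2:**
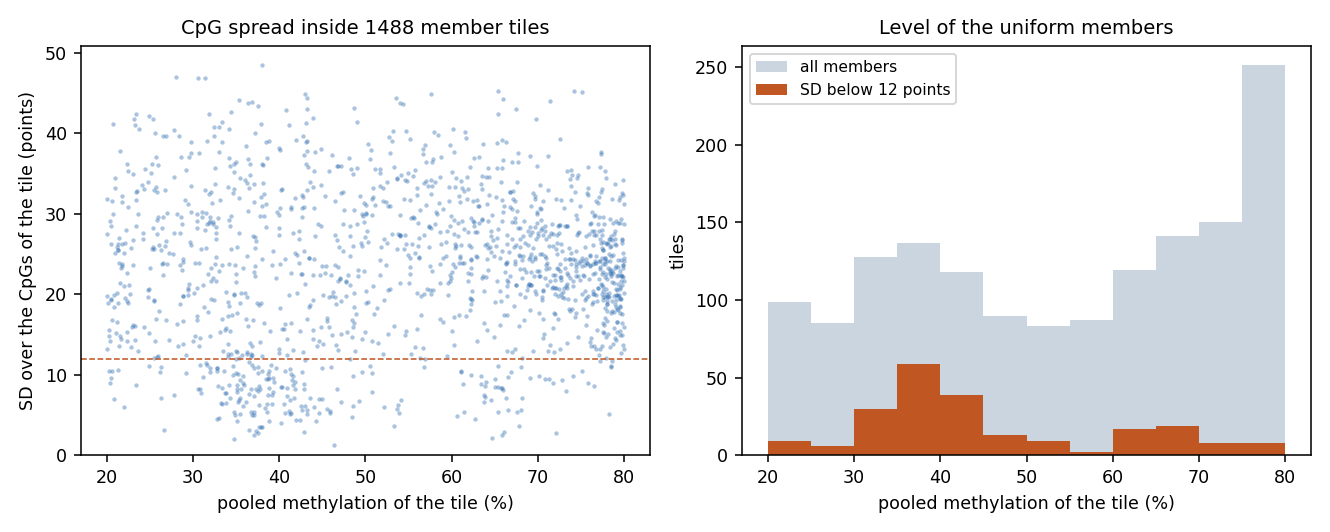
Left, SD (points) between the CpGs of each of the 1488 members against its pooled methylation (%), with a dashed line at 12 points. Right, number of tiles per 5 points of pooled methylation, for all members (grey) and for the 219 with an SD below 12 points (orange), which peak at 35 to 40% and are rare at 55 to 60%.

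Most members lay far from the CpG-dense tiles that the libraries show. Taking tiles with 25 or more listed CpGs as CpG-dense, 358 members (24.1%, Wilson interval 22.0 to 26.3%) lay within 2 kb of a dense tile, and 243 (16.3%) touched it. A further 53 (3.56%) lay at 2500 to 4000 bp and 1077 (72.4%) beyond 4000 bp. The median distance was 37000 bp. Density was counted from listed CpGs only, and RRBS lists part of the CpGs of a region, so each distance is an upper bound: 99 of the 210 promoter windows at members held 25 or more CpGs in their sequence, and the Acvr2a window held 54 CpGs, of which 17 were listed. For the tiles of the same CpG number below 20% the share within 2 kb was 33.9%, for those above 80% it was 12.8%, and over all covered tiles it was 20.4%. Seen from the other side, members made up 6.78% of the intermediate-density tiles that touched a dense tile, 14.3% of those at 500 to 2000 bp, 18.9% of the 280 at 2500 to 4000 bp, and 7.14% of those farther away. By this measure middle levels were most frequent at 2500 to 4000 bp from a tile with 25 or more listed CpGs. The median level of members was 43.1% beside a dense tile and 57.8% beyond 4000 bp.

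**Figure D3:**
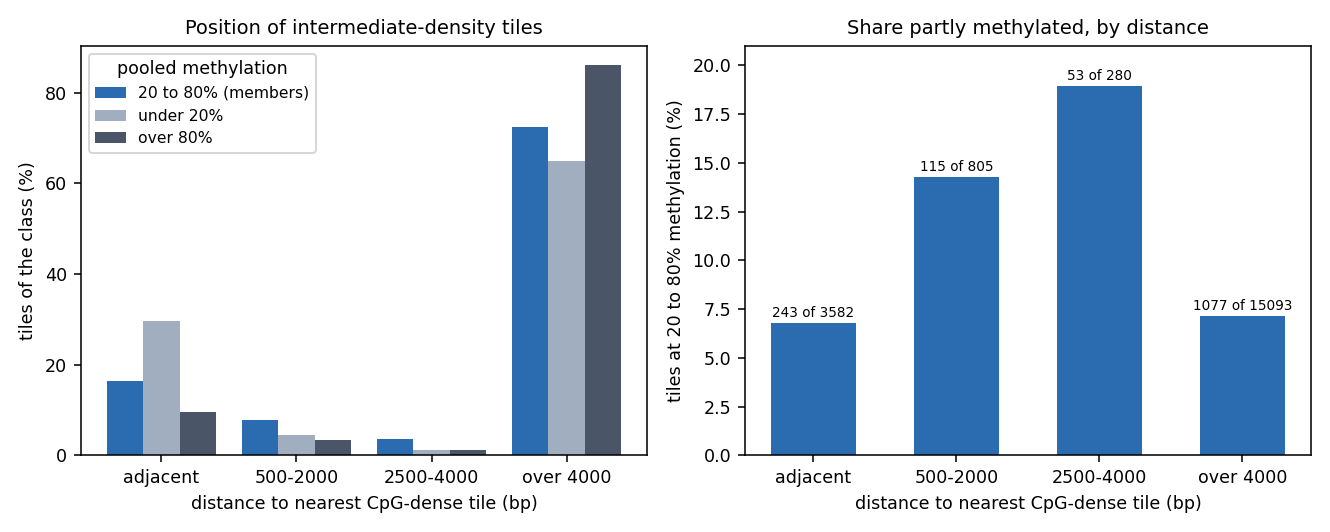
Left, share (%) of intermediate-density tiles at each distance (bp) from the nearest CpG-dense tile, for members (20 to 80%) and for tiles under 20% and over 80%. Right, share (%) of all intermediate-density tiles at that distance that are members, which is highest at 2500 to 4000 bp (18.9%).

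The dense tiles near shore members had mixed levels. The nearest dense tile was below 20% for 150 of the 358 (41.9%), at 20 to 80% for 127 (35.5%) and above 80% for 81 (22.6%). For shore tiles below 20%, 97.6% had a nearest dense tile below 20%, and for shore tiles above 80%, 88.2% had one above 80%. Within members that had at least 3 CpGs on each side of their midpoint, the gradient followed that neighbour. In 109 members near a dense tile below 20%, CpGs on the side nearer to it averaged 29.7%, against 61.8% on the far side. The near side was lower by over 10 points in 78 of them and higher by over 10 points in 14. In the 79 members near a dense tile at 20 to 80% the sides averaged 47.2% near and 48.9% far, with no common direction (24 lower and 20 higher). In the 58 members near a dense tile above 80% they averaged 70.7% near and 62.9% far, and the near side was higher by over 10 points in 27 and lower in 16.

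Promoter windows that could be placed overlapped about as large a share of members as of all tiles. Of the 1453 members outside chromosome 18, where no window was placed, 197 (13.6%, Wilson interval 11.9 to 15.4%) overlapped a placed promoter window, and these windows belong to 197 genes. The share was 34.0% in tiles below 20%, 5.47% in tiles above 80% 33.9% in CpG-dense tiles at 20 to 80% and 15.4% over all covered tiles. Windows that list under 8 CpGs could not be placed, so these shares are lower bounds and favour CpG-rich tiles. In 131 of the 197 genes the window held at least 3 CpGs on each side of a point 100 bp before the start. There the CpGs near the start averaged 40.2% and those upstream 47.2%. The level near the start was lower by over 10 points in 54 genes (41.2%), higher by over 10 points in 26 (19.8%) and within 10 points in 51. Genes that share a tile were counted separately, here and in the next count. Tasor and Gm52095 share a tile, and their windows gave the same values of 16 CpGs in opposite directions. Tasor therefore counts as lower and Gm52095 as higher. These windows reach outside the members, where other tiles can be low throughout. With only the CpGs inside member tiles, a count added after seeing the data, 84 genes had 3 CpGs on each side, with averages of 42.4% near the start and 51.1% upstream. The level near the start was lower by over 10 points in 40 of them (47.6%), higher by over 10 points in 20 (23.8%) and within 10 points in 24.

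Listed imprinted and myeloid genes say little about the members, because few of their tiles could be members. Of 36 imprinted genes, 7 had a placed window and 6 a covered tile there, but only that of Mcts2, at 98.1%, had 10 to 24 listed CpGs. The tiles at the windows of Plagl1, Igf2r and Zdbf2 stood at 97.2%, 95.9% and 96.4%, that of Peg12, with 36 listed CpGs, at 79.3%, and both tiles of Gnas at 0.7% and 0.4%. At Igf2 no tile was covered. Of 30 myeloid and progenitor genes, 4 had a placed window, and the tiles of 2 of them, Irf8 and Kit, had 10 to 24 listed CpGs. The tiles at Cebpb, Irf8, Runx1 and Kit, regulators and a receptor of myeloid progenitors, stood at 0.2%, 0.8%, 0.3% and 2.0%.

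Across libraries the mean level of the 1488 members varied little. It was 54.6% with continuous E2, 54.1% and 53.5% after 24 h and return, 54.0% and 54.2% after 40 h, 54.4% and 54.6% after 56 h, 52.9% and 54.1% after 72 h, and 53.5% and 53.4% at 120 h. The pooled SD between replicates was 0.445 points. The 120 h mean was 0.34 points lower than the 24 h mean, which is within that spread, and 1.13 points lower than the lone continuous E2 library. Other tiles were lower at 120 h too. With continuous E2 and at 120 h the level was 56.8% and 56.5% over all covered tiles. In CpG-dense tiles at 20 to 80% it was 48.2% and 46.7%. Reads summed over all members, where deep tiles weigh more, gave the opposite direction, with 120 h 1.07 points above 24 h and 0.906 points above continuous E2. Over the 11 libraries the member level fell with the logarithm of depth (Pearson r = -0.80, Spearman rho = -0.67, and r = -0.79 without the 2 libraries farthest from the median depth). The level over all covered tiles fell too (Pearson r = -0.56), and the member level went with it (r = 0.81). Pooled methylation weighs deep libraries more, so depth also enters the choice of members. The libraries of a group share their depth in part, and the part of depth in these levels was not tested.

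**Figure D4:**
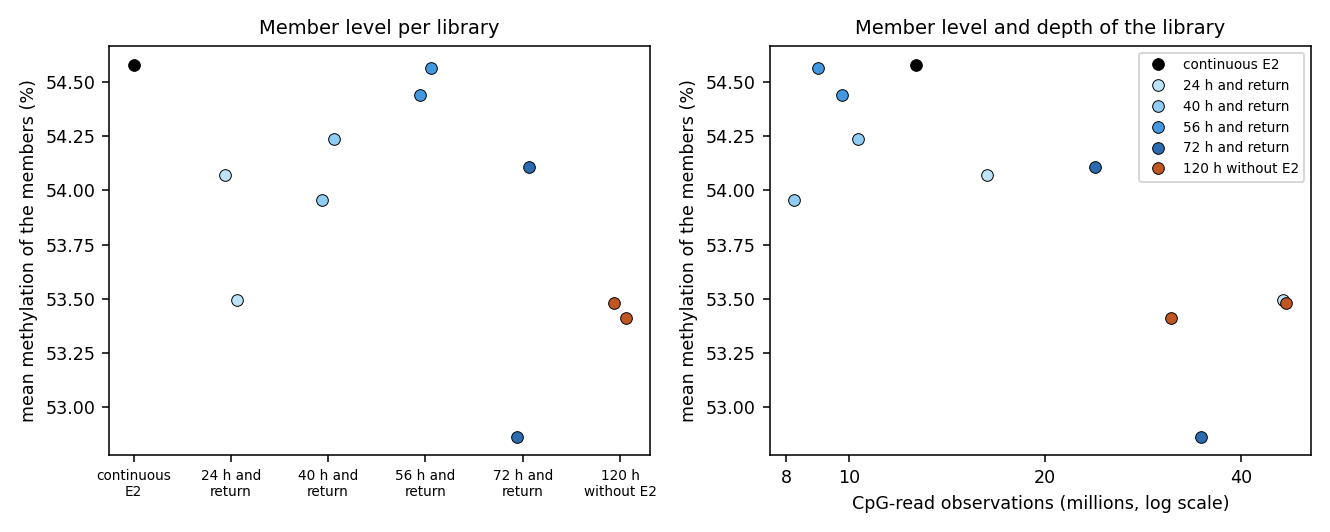
Mean methylation (%) of the 1488 members in each library (points), by group on the left and against the CpG-read observations of the library (log scale) on the right. All libraries lie between 52.9% and 54.6%, and the deeper libraries tend to be lower.

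Single members varied more between libraries than tiles near the extremes. The range over the 11 libraries had a median of 19.05 points for members, against 6.88 points for tiles above 80% and 1.47 points for tiles below 20%. The gap between the replicates of a group at a member had a median of 4.60 points after 24 h, 7.35 after 40 h, 6.91 after 56 h, 4.54 after 72 h and 3.82 at 120 h, widest in the 2 shallow groups. Counting error is largest at middle levels, so the dispersion, the variance between replicates divided by that of counting, was compared as well. Counting takes every CpG-read observation as independent. CpGs that share a read can therefore raise the dispersion, and their part in it was not tested. The median dispersion was 2.22 at members, 0.877 at tiles below 20% and 1.06 at tiles above 80%. It was 1.07 over all tiles tested and 3.18 at the CpG-dense tiles at 20 to 80%. Among members it was 2.84 in the 496 with the smallest CpG spread, 1.78 in the 496 in the middle and 2.11 in the 496 with the largest. These sets also differed in level, with a median pooled methylation of 44.0%, 66.4% and 53.7%. The uniform promoter tile of Psrc1 shows a wide spread between libraries. It had 23.1% with continuous E2, 36.5% and 35.6% after 24 h, 34.6% and 66.4% after 40 h, 25% and 63.6% after 56 h, 36.4% and 32.8% after 72 h, and 29.4% and 30.3% at 120 h. The second 40 h and the second 56 h library stood apart from their replicates there, both in shallow groups.

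To ask whether members changed with the absence of E2, methylated and unmethylated reads per tile were compared with a quasi-binomial logistic model fitted on all 47613 testable tiles, with dispersion moderated by limma and p-values adjusted over all of them (Benjamini-Hochberg, threshold 0.05). For 120 h against 24 h and return, 0 of 1488 members were called, where 0.0315% of all tiles were. The smallest adjusted p of a member was 0.0983. At an unadjusted p under 0.05 there were 186 members (12.5%), 91 higher and 95 lower at 120 h, against 7.22% of all tiles. With a moderation that follows the level of the tile, 7.12% of members passed that mark, against 7.24% of all tiles, so the members' share was near the background. With that moderation the other comparisons gave 7.46% of members against 6.39% of all tiles for any difference between the 6 groups, 6.65% against 5.32% for 120 h against continuous E2, 6.25% against 7.38% for 72 h against 24 h, 6.12% against 5.38% for 72 h against continuous E2, 5.38% against 4.95% for 56 h, 5.24% against 5% for 40 h and 5.78% against 4.88% for 24 h against continuous E2, and 5.24% against 5.66% for the trend with hours. A limma fit on log2 ratios of methylated to unmethylated reads called 0 members and put 2 at an unadjusted p under 0.05, which is 0.134% of members against 3.94% of all tiles. That fit passed members less often than other tiles, and its low count is no support. The difference, 120 h minus 24 h, had a median of -0.37 points over members. It was 10 points or more in 84 of them (5.64%), against 0.615% of all tiles. Counting error is largest at middle levels, and its part in these shares was not tested. A 95% half-width, before adjustment, was computed for the difference between groups with the reads of replicates pooled. It had a median of 6.57 points, and smaller changes of a single member were mostly not detectable. The differences given here are between means of library percentages, which can vary more where replicates differ in depth. A call after adjustment needed more. The member with the smallest adjusted p differed by 21.4 points.

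The other comparisons gave no called member either. They share libraries with each other (24 h or continuous E2), so their values are not independent. For 120 h against continuous E2, 0 members were called (0.0021% of all tiles) and 165 had an unadjusted p under 0.05 (5.32% of all tiles did, and 11.1% of members). For 72 h and return against 24 h and return, 0 members were called (0.0147% of all tiles) and 153 had an unadjusted p under 0.05 (7.21% of all tiles). For 72 h and return against continuous E2, 0 were called (0.0021% of all tiles) and 194 passed the unadjusted mark (5.56% of all tiles). For 56, 40 and 24 h and return against continuous E2, 0 were called (0% of all tiles each) and 161, 147 and 175 members passed the unadjusted mark (5.02%, 5.03% and 5.13% of all tiles). The trend with hours without E2 over the 8 returned libraries called 0 members (0.0042% of all tiles) and put 109 at an unadjusted p under 0.05 (5.73% of all tiles). A test for any difference between the 6 groups called 0 members (0.0189% of all tiles) and put 258 there (5.98% of all tiles). In these comparisons too the limma fit on log2 ratios called 0 members, with 1 to 38 (0.0672% to 2.55%) at an unadjusted p under 0.05, against 3.68% to 8.56% of all tiles. Against the lone continuous E2 library the median half-width was wider, 11.6 points for 120 h.

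**Figure D5:**
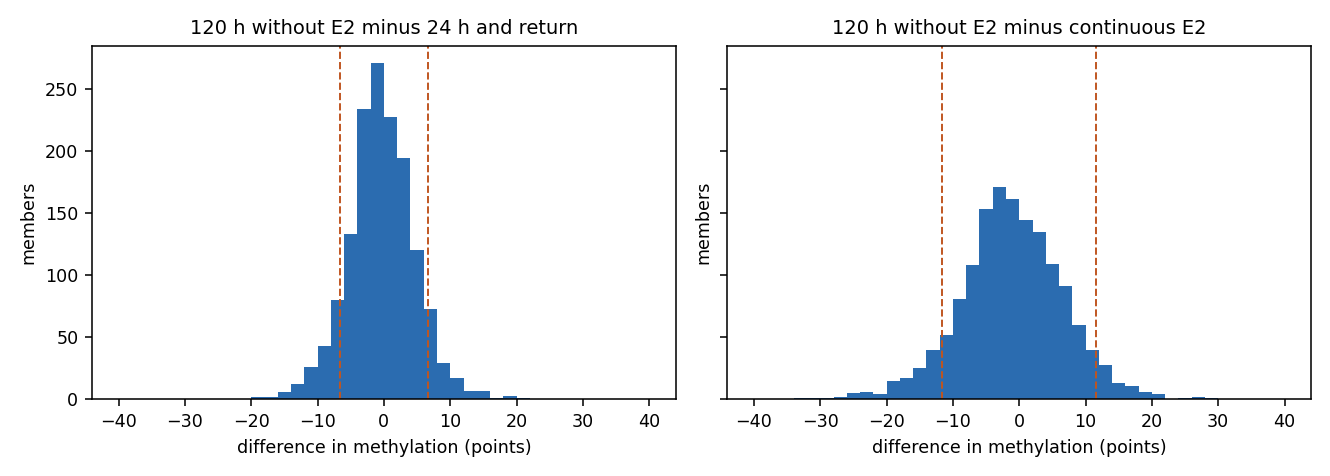
Number of members by the difference in methylation (points, bins of 2). Left, 120 h without E2 minus 24 h and return. Right, 120 h without E2 minus continuous E2. Dashed lines mark the median 95% half-width of a member before adjustment, 6.57 and 11.6 points. It was computed with the reads of replicates pooled, whereas the differences are between means of library percentages. The right distribution is wider, and it rests on 1 library in E2.

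The members with the smallest p-values are given as values, not as calls. The tile chr12:93017501-93018000, which touches a dense tile at 20.03%, had 46.02% and 44.97% at 120 h, against 22.1% and 26.0% after 24 h and return (adjusted p = 0.0983). The groups do not overlap, but continuous E2 had 42.6% and the first 40 h library 47.6%, as high as 120 h. The tile chr10:119990001-119990500, far from dense tiles, had 63.0% and 63.4% at 120 h, against 44.2% and 45.1% after 24 h (adjusted p = 0.294), and no other library reached the 120 h values. The tile chr4:32326501-32327000 had 33.5% and 37.9% at 120 h, against 19.01% and 20.7% after 24 h (adjusted p = 0.385), with 43.1% in continuous E2.

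In the other direction, chr6:144730001-144730500 had 33.0% and 42.0% at 120 h, against 55.6% and 52.4% after 24 h (adjusted p = 0.112). Continuous E2, at 39.1%, lay with the 120 h pair. The tile chr10:8270001-8270500 had 55.9% and 52.0% at 120 h, against 69.6% and 65.9% after 24 h (adjusted p = 0.294). It was 73.4% and 68.2% after 72 h and return and 57.7% in continuous E2, so that continuous E2, the second 40 h library (53.0%) and both 120 h libraries were low there. At the promoter of Acvr2a, an activin receptor, the tile chr2:48669001-48669500 had 27.8% and 35.7% at 120 h, against 52.6% and 42.6% after 24 h (adjusted p = 0.623). Its 20 CpGs stood between 32.5% and 44.6%, and the 56 h libraries had 51.0% and 68.0%.

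A tile 213 bp from the nearest placed start, that of the membrane protein gene Tmem132b, had the smallest p of the members against the E2 library, both at 120 h and after 72 h and return. The tile chr5:126013001-126013500 had 58.6% and 61.2% at 120 h, against 38.3% in continuous E2 (Wilson interval 32.2 to 44.7%, 230 observations), an adjusted p of 0.128. It had 62.3% and 62.8% after 72 h and return (adjusted p = 0.0872 against continuous E2), and 51.6% to 63.2% in the other returned libraries. All 10 libraries from cells that had been without E2 were above the interval of the 1 library that had not. That interval treats observations as independent, although 1 read can cover several CpGs, so it is likely too narrow. With 1 library in E2, a difference of that library cannot be told apart from one of the treatment.

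Promoter members changed no more clearly. Over the 197 promoter tiles the median difference, 120 h minus 24 h, was -0.83 points, and the smallest adjusted p was 0.623. Of these tiles 10 reached 10 points in either direction, where 5.64% of members and 0.615% of all tiles did. The Dnmt3a window had 30.3% and 40.7% at 120 h, against 41.8% and 40.1% after 24 h and return, and 23.7% in continuous E2. The Zfp558 window had 39.9% and 38.6% at 120 h, against 46.9% and 33.0% after 24 h, and 44.9% in continuous E2. The Cdk6 window had 39.8% and 26.8% at 120 h, against 31.5% and 29.2% after 24 h, and 31.6% in continuous E2. In all 3 the values at 120 h and after 24 h overlap.

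The deepest members had far more reads than the rest, and 16 members had over 10 times the median depth. In chr17:39980001-39980500, with 11639 to 59253 observations per library, the level was 37.9% and 39.1% at 120 h, against 34.7% and 35.05% after 24 h (adjusted p = 0.653), and 34.4% in continuous E2. In chr11:108873001-108873500, with 8059 to 42470 observations, it was 44.6% and 46.2% at 120 h, against 42.3% and 43.8% after 24 h (adjusted p = 0.816). Both tiles are themselves uniform members, with an SD between CpGs of 7.589 and 5.085 points, under the limit of 12 points. Their pooled levels were 36.55% and 43.2%. Their likeness to other uniform members at 35 to 45% therefore follows from the choice. Their CpGs ranged from 19.3% to 45.04% and from 33.1% to 47.1%. They had 1453 and 2071 reads per CpG and library, against a median of 14.5 over members. The cause of this depth was not tested. The 3 members nearest to 50% show why a middle level needs its CpGs beside it. The tile chr17:32589501-32590000 (49.96%) held CpGs from 18.2% to 98.6%, and chr7:19764501-19765000 (50.04%) CpGs from 31.8% to 100%. The third, on chromosome 18 at 50.06%, ranged from 7.05% to 98.7%.

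At the limits of the choice, the members nearest to 20% stood at 20.005%, 20.06% and 20.08% and the tiles just outside at 19.97%, 19.96% and 19.88%. The members nearest to 80% stood at 79.99%, 79.99% and 79.98% and the tiles just outside at 80.01%, 80.02% and 80.03%. These tiles differ by less than the range of any of them over the libraries.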

How the data were processed

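RRBS of 11 libraries was used. The deposited tables give, per CpG, methylated over all reads as text and a score, which equals 1000 times the methylated share, per the file contents. The authors' build was mm9, per the submitters' processing notes; the aligner, caller and duplicate handling are not given in the sources used here. Scripts summed the deposited counts of reads into 500-bp tiles and did not use the score.

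Tests fitted 1 mean per group to 47613 tiles with reads of both kinds (74 covered tiles had reads of 1 kind), with all 11 libraries in 1 fit, a two-sided deviance F test and dispersion moderated by squeezeVar of limma 3.58.1 (R 4.3.3) and not allowed below 1. The lone E2 library was assumed to vary like the other groups. Other computations used Python 3.11.15, numpy 2.4.6, scipy 1.17.1 and pandas 2.3.3. The method was tested on simulated data. The planned edgeR alternative was not run.

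RefSeq promoters (GRCm38.p6) of 300 bases were placed where at least 8 listed CpGs all fell on CpGs of the sequence. Of 15382 windows, 7158 had 1 such site, and 39 (0.254%) had one on a wrong chromosome. After removal of 10 out of order, 7148 windows of 6384 symbols were kept. An observation counts a read at each CpG it covers, and reads had no molecular identifiers. Observations from 1 read are not independent, so intervals on observations can be narrower than the counting error of reads. No interval covers more than counting error. Named tiles were the 5 higher and 5 lower with the smallest p at 120 h against 24 h and no overlap of groups, the extremes of level, depth and CpG spread, and those with the smallest p in other comparisons; a selection is described. The members and lists were chosen with earlier results of these data known.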

Additional observations from a re-analysis of the deposited data

How the results depend on the processing

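Of 206 results by planned setting, 8 moved. For 120 h against 24 h, a fit with only these libraries called 1 member, chr17:39983501-39984000 in the pile-up locus (40.3% and 40.2% at 120 h, against 34.8% and 35.9% after 24 h, adjusted p = 0.0250); for 72 h against 24 h, a grid shifted by 250 bp called 1 (adjusted p = 0.0302). The cause was not tested. The share within 2 kb of a dense tile was 16.7% with dense tiles of 30 or more CpGs and 10.5% with dense tiles below 20% methylation, which leave fewer dense tiles. The share of CpGs at 20 to 80% was 56.6% for CpGs with 50 or more pooled reads and 57.4% with 60 observations in every library. Reads summed over members gave 1.07 points for the level at 120 h minus 24 h and 0.906 points for 120 h minus continuous E2. Leaving out each library in turn called 0 to 0 members in every comparison, and gave -0.62 to -0.05 and -1.17 to -1.10 points for these levels.

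With the replicate number as a block, 0 members were called for any difference, 120 h against 24 h, 72 h against 24 h and the trend. Tile by tile, same-numbered libraries did not deviate together (r from -0.079 to 0.074 over members, 10 pairs of groups). With reads summed over members, however, replicate 2 was above replicate 1 in every pair. Replicates 1 and 2 had 47.19% and 47.5% after 24 h, 44.95% and 48.44% after 40 h. They had 47.58% and 49.5% after 56 h, 45.46% and 49.01% after 72 h, and 48.14% and 48.67% at 120 h. The mean over members was higher in replicate 2 only after 40, 56 and 72 h. The sum weighs deep tiles more. In the deep members chr17:39980001-39980500 and chr11:108873001-108873500, replicate 2 was above replicate 1 in every pair. The part of such tiles in the sum was not tested. What same-numbered libraries have in common was not tested. The edgeR alternative was not run. With 60 observations in every library 860 members were left, and the shifted grid had 1572. With limits of 10 and 15 points for uniform members, chosen after seeing the data, the counts at 35 to 40% were 48 and 73 and those at 55 to 60% were 0 and 7. Depth and adjustment over all tiles limit which differences of single members can be called, and the group in E2 has 1 library.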
